A study of Homo sapiens with 4 samples.

Results

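ATF4 and the genes around it form the core of the integrated stress response. The 10 genes described here were taken by name from the deposited gene table, which lists 58735 genes. They are the eIF2 kinases EIF2AK3 and EIF2AK4, the transcription factors ATF4, ATF5, DDIT3, CEBPB and CEBPG, the phosphatase subunit PPP1R15A, the pseudokinase TRIB3 and the enzyme ASNS. All 10 were found in the table, each as 1 row.

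RNA of a human lung squamous cell carcinoma cell line was sequenced as 2 libraries at 30 Gy and 2 libraries at 0 Gy (gray, which measures the absorbed dose of radiation). The doses come from the library names. The design text speaks of SK-MES-1 and of SK-MES-1-RR, a derivative resistant to radiotherapy, and the labels do not assign either name to a library, so dose and cell line cannot be told apart here. Neither fractionation nor the time between irradiation and RNA extraction is given, and nothing says that replicates were separate cultures, so a p-value here weighs a difference against the spread of these libraries alone, and that spread may be technical. In bulk RNA, fewer cells of a type and less RNA per cell cannot be told apart.

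The integrated stress response joins several stresses at a shared step of translation. Kinases such as PERK (encoded by EIF2AK3), which senses unfolded protein in the endoplasmic reticulum, and GCN2 (EIF2AK4), which senses uncharged tRNA, phosphorylate the initiation factor eIF2. General translation then slows, while the mRNAs of ATF4, ATF5 and several other members are translated better through upstream open reading frames. ATF4 pairs with C/EBP proteins and switches on genes of amino acid supply, tRNA charging and stress control. Much of ATF4 regulation is at translation, which mRNA levels do not show.

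ATF4 and C/EBP partners bind a composite element whose usual letters are TGATGNAA. Among the 250 bases before and 50 bases after each annotated start, from RefSeq on GRCh38.p14, 3.62% of 35116 promoters hold these letters on either strand. The table has 19 promoters for the 10 genes, and 2 hold the element, 1 of ASNS and 1 of CEBPG. The cyclic AMP response element TGACGTCA, another bZIP site, was searched on both strands as well, and it reads the same on both. It stands in 1 promoter, that of PPP1R15A, and in 1.85% of all promoters. The ER stress element ERSE, to which ATF6 binds, was in 0 of the 19 and in 0.0769% of all promoters. None of the 3 searched motifs overlapped another in the windows shown. The windows with a match are shown because the results turn on genes of this kind, together with CHAC1, a gene that answers to ATF4, and HSPA5, a gene of the ATF6 arm, both picked after their values were seen. HERPUD1, another gene of the target lists below, was also searched. It holds TGATGCAA at -176 on the opposite strand and is not shown. Its log2 difference between doses was -0.15 and did not pass the test described below. Capitals mark the matched letters, positions count back from the annotated start, and a match is a description of the letters only. The ASNS and CHAC1 windows lie in exons of their genes in GENCODE v29, which also has starts further upstream.
ASNS, chr7:97872458-97872487, minus strand, match at -68: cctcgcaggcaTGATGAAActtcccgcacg
CEBPG, chr19:33374013-33374112, plus strand, match at -42: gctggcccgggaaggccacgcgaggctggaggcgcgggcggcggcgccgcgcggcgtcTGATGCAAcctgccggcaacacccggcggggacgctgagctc
PPP1R15A, chr19:48872352-48872381, plus strand, match at -58: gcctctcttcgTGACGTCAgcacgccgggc
CHAC1, chr15:40953251-40953280, plus strand, match at -209 on the opposite strand: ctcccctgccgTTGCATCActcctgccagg
HSPA5, chr9:125241350-125241449, minus strand, match at -66: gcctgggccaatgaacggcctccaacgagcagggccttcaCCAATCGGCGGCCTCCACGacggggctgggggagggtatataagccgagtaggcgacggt

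The deposited values are FPKM (fragments per kilobase of gene, scaled to the size of the library). Levels can be compared only roughly between genes. For ASNS (4455) and EIF2AK4 (11957) the listed gene length equals all annotated exonic bases, and the transcripts present may hold fewer. Reads per gene were recovered from the FPKM values, and they totalled 15920861 and 15979341 at 30 Gy and 17261121 and 16773381 at 0 Gy. Differences were tested with limma on log2(FPKM + 1) across the 13379 genes with at least 1 FPKM in at least 2 libraries, with a call at a Benjamini-Hochberg adjusted p under 0.05. Libraries of the same dose were more alike (Pearson's r on that scale, 0.981 at 30 Gy and 0.984 at 0 Gy) than libraries of different doses (0.956 to 0.958). Of 6 squamous markers, 1 passed the filter, TP63, and KRT5, KRT6A and DSG3 were listed at 0 in all 4 libraries, so apart from TP63 these markers do not bear out the squamous label. The 4 simple epithelium markers summed to 167 to 181 FPKM at 30 Gy and 237 to 248 FPKM at 0 Gy. The sum was lower through KRT19 and, at a far lower level, EPCAM. KRT19 had 92.8 and 84.1 FPKM at 30 Gy, against 165 and 159 FPKM at 0 Gy, and the means of KRT8 and KRT18 were 1.11 and 1.08 times as high at 30 Gy as at 0 Gy. The 5 fibroblast markers summed to 72.4 to 78.6 FPKM at 30 Gy and 62.8 to 63.2 FPKM at 0 Gy, nearly all of it COL1A1, with DCN at 0 in all 4 libraries. At low levels, PDGFRB had 1.46 and 1.51 FPKM at 30 Gy, against 0.652 and 0.717 FPKM at 0 Gy. LUM had 0.895 and 1.32 FPKM at 30 Gy, against 0.0191 and 0.0978 FPKM at 0 Gy. COL1A2 had at most 1 read in any library. The 3 leukocyte markers summed to at most 0.160 FPKM and the 3 endothelial markers to at most 0.121 FPKM in any library, with CD3E and CDH5 at 0 in all 4. The part of these differences in the results was not tested.

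At 30 Gy the core of the response stood lower than at 0 Gy below the level of the kinases. ATF4, DDIT3, TRIB3 and PPP1R15A fell, by 0.41 to 1.03 on the log2(FPKM + 1) scale. Mean FPKM was lower at 30 Gy for 8 of the 10 genes, and the 2 with a higher mean were the kinases. limma called 4 of the 9 tested genes lower and 0 higher (8 of 9 had an unadjusted p under 0.05, as had 37.7% of all tested genes, and voom, limma's method for reads, called 6 lower and 2 higher on the recovered reads). Over all tested genes limma called 19.8%, with 9.06% lower and 10.8% higher, and voom called 16.3% lower and 15.3% higher. ASNS lay under the expression filter and was not tested. In all 10 genes the 2 doses did not overlap, as was so for 65.2% of all tested genes (32.3% with both 30 Gy libraries lower and 32.9% with both higher). Without either 0 Gy library 0 of the 13379 genes passed limma's adjusted threshold (3422 without the first and 3460 without the second had an unadjusted p under 0.05), so the calls of the 4 genes are lost there too.

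**Figure D1:**
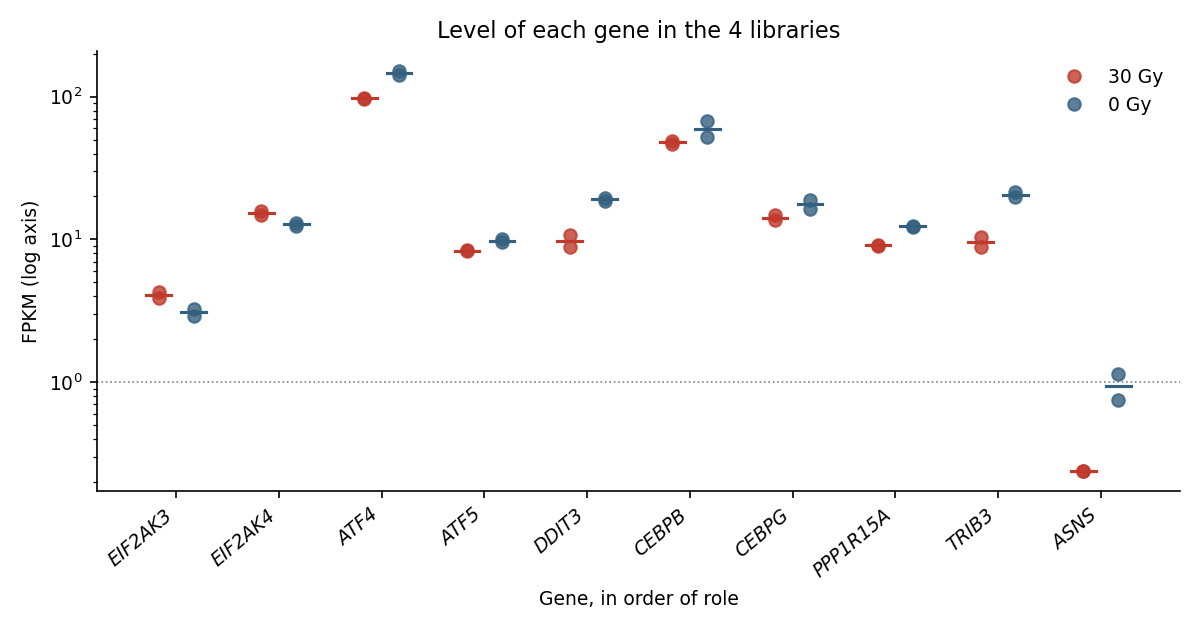
FPKM on a log axis for each of the 10 genes, with a point for each library and a bar at the group mean, 30 Gy left of 0 Gy. EIF2AK3 and EIF2AK4 are higher at 30 Gy, the other 8 genes are lower, and ASNS lies below the dotted line at 1 FPKM except in the second 0 Gy library.

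The order of the levels was alike at both ends. ATF4 was the most abundant at both doses and exceeded 98.4% of the tested genes in its mean over the 4 libraries, CEBPB exceeded 94.9% and EIF2AK3 34.1%. At 30 Gy the order of mean FPKM ran ATF4, CEBPB, EIF2AK4, CEBPG, DDIT3, TRIB3, PPP1R15A, ATF5, EIF2AK3, ASNS. Within it EIF2AK4 and CEBPG, DDIT3 and TRIB3, and TRIB3 and PPP1R15A differed by less than the sum of their SDs. At 0 Gy TRIB3 and DDIT3 followed CEBPB and stood ahead of CEBPG, EIF2AK4 and PPP1R15A. There TRIB3 and DDIT3, DDIT3 and CEBPG, and EIF2AK4 and PPP1R15A differed by less than the sum of their SDs. The SDs do not cover the effect of the listed gene lengths on the order.

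The kinases come first in the pathway, and their mRNAs were the part that was higher at 30 Gy. EIF2AK3 (ENSG00000172071, chr2:88556741-88627576, minus strand, hg38) had 4.29 and 3.91 FPKM at 30 Gy, against 3.24 and 2.93 FPKM at 0 Gy. EIF2AK4 (ENSG00000128829, chr15:39934146-40035591, plus strand) had 15.8 and 14.9 FPKM at 30 Gy, against 12.5 and 13.1 FPKM at 0 Gy. Each 30 Gy library was above each 0 Gy library for both genes, and neither difference passed the test. The log2 difference was 0.32 for EIF2AK3 (95% interval 0.08 to 0.56, limma adjusted p = 0.0729) and 0.25 for EIF2AK4 (0.07 to 0.42, adjusted p = 0.0644). voom on the recovered reads, 338 to 372 at 30 Gy and 271 to 306 at 0 Gy for EIF2AK3, called both higher (adjusted p = 0.0380 and 0.0165). EIF2AK4 also passed limma at a filter of 5 FPKM (adjusted p = 0.0434). Over all alternatives the adjusted p ran from 0.0380 to 0.263 for EIF2AK3 and from 0.0148 to 0.244 for EIF2AK4.

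The other kinases of eIF2 did not pass, and their intervals held 0. EIF2AK1, which encodes the heme-regulated kinase HRI and was the most abundant of the 4, had 68.0 and 67.8 FPKM at 30 Gy, against 66.1 and 67.3 FPKM at 0 Gy (log2 difference 0.02, 95% interval -0.12 to 0.16). EIF2AK2, which encodes PKR, the kinase that responds to double-stranded RNA, had 10.1 and 10.4 FPKM at 30 Gy, against 9.81 and 10.8 FPKM at 0 Gy, and here the doses overlapped (-0.01, -0.21 to 0.19). So 0 of the 4 kinases were called by limma, 2 of them with an unadjusted p under 0.05, and voom called 2 higher.

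ATF4 (ENSG00000128272, chr22:39519695-39522685, plus strand) encodes the factor that gives the response its transcriptional output, and its mRNA fell at 30 Gy. It had 96.9 and 98.4 FPKM at 30 Gy, against 152 and 142 FPKM at 0 Gy. The 30 Gy libraries lay close together and well below both 0 Gy libraries. The means were 97.6 ± 1.05 FPKM at 30 Gy and 147 ± 7.30 FPKM at 0 Gy (SD, n = 2 each), a log2 difference of -0.58 ± 0.06 (SE) with a limma adjusted p of 0.00757. Leaving out a 30 Gy library gave an adjusted p of 0.0467 (the first) or 0.0444 (the second). Leaving out a 0 Gy library gave 0.0847 (the first) or 0.0813 (the second), and over all alternatives it ran from 1.44e-07 to 0.0847. Its 4 listed pseudogenes held 0 to 9 reads over the 4 libraries, against 3889 to 6645 reads of ATF4 in each.

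DDIT3 (ENSG00000175197, chr12:57516588-57521737, minus strand) encodes CHOP, a bZIP factor that ATF4 induces and that is tied to cell death under lasting stress. It had 10.7 and 8.85 FPKM at 30 Gy, against 19.4 and 18.7 FPKM at 0 Gy. It fell 1.95-fold by the ratio of means, with a log2 difference of -0.90 ± 0.10 (SE) and a limma adjusted p of 0.00799. With no filter on low values the call was lost (adjusted p = 0.0551), and so it was when a 0 Gy library was left out (0.102 for the first, 0.0974 for the second). Over all alternatives the adjusted p ran from 2.30e-05 to 0.102. Of its 1307 exonic bases, 355 also lie in exons of MARS on the opposite strand, and whether counting used strand is not given in the sources used here. MARS, the methionyl-tRNA synthetase, had 25.7 and 22.8 FPKM at 30 Gy, against 31.1 and 32.0 FPKM at 0 Gy, and fell by 0.37. The part of MARS reads in the DDIT3 values was not tested.

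The C/EBP partners were lower at 30 Gy by less, without passing limma. CEBPB (ENSG00000172216, chr20:50190734-50192689, plus strand), a factor of inflammation and differentiation that can pair with ATF4, had 46.9 and 48.6 FPKM at 30 Gy, against 67.2 and 52.1 FPKM at 0 Gy. CEBPG (ENSG00000153879, chr19:33373330-33382686, plus strand), a widely expressed partner of ATF4, had 13.6 and 14.7 FPKM at 30 Gy, against 18.8 and 16.4 FPKM at 0 Gy. The 0 Gy libraries of CEBPB were far apart, and the second lay close to the 30 Gy values. The log2 difference of CEBPB was -0.30 (95% interval -0.63 to 0.02, limma adjusted p = 0.157), and it was -0.12 without the first 0 Gy library and -0.48 without the second. CEBPG differed by -0.30 (-0.53 to -0.06, adjusted p = 0.0804), and by -0.20 without the first 0 Gy library and -0.39 without the second. voom called both lower (adjusted p = 0.0217 and 0.0123), and CEBPG passed limma at a filter of 5 FPKM (0.0460). Over all alternatives the adjusted p ran from 0.0154 to 0.374 for CEBPB and from 0.0110 to 0.283 for CEBPG.

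ATF5 (ENSG00000169136, chr19:49928702-49933935, plus strand), a relative of ATF4 known for the stress response of mitochondria, had 8.38 and 8.28 FPKM at 30 Gy, against 10.1 and 9.54 FPKM at 0 Gy. The doses did not overlap, and the log2 difference was the smallest in size of the 9 tested genes, -0.21 (95% interval -0.39 to -0.04, limma adjusted p = 0.0893). It passed with neither limma nor voom (adjusted p = 0.112, and 0.0725 to 0.302 over all alternatives). Of its 2954 exonic bases 626 are shared with NUP62 on the opposite strand, a nucleoporin gene that had 25.2 and 20.8 FPKM at 30 Gy, against 19.3 and 20.4 FPKM at 0 Gy. Within a library, ATF5 stood at 0.0864 and 0.0841 times the FPKM of ATF4 at 30 Gy, against 0.0663 and 0.0674 times at 0 Gy. DDIT3 went the other way against ATF4, with 0.110 and 0.0899 times its FPKM at 30 Gy and 0.128 and 0.132 times at 0 Gy.

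PPP1R15A (ENSG00000087074, chr19:48872392-48876057, plus strand) encodes GADD34, which brings protein phosphatase 1 to eIF2 and so closes the response. It had 9.19 and 9.003 FPKM at 30 Gy, against 12.4 and 12.3 FPKM at 0 Gy. Libraries of the same dose almost coincided. It fell by 0.41 ± 0.06 on the log2 scale (SE, limma adjusted p = 0.0173). With no filter on low values the call was lost (adjusted p = 0.0527). It was also lost with any library left out: 0.0669 and 0.0713 for the first and second at 30 Gy, and 0.124 and 0.121 for the first and second at 0 Gy. Over all alternatives its difference lay between -0.46 and -0.39 and the adjusted p between 0.00335 and 0.124.

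TRIB3 (ENSG00000101255, chr20:362835-397559, plus strand) encodes a pseudokinase that ATF4 and CHOP induce and that restrains ATF4 and AKT. It had 10.3 and 8.86 FPKM at 30 Gy, against 19.8 and 21.4 FPKM at 0 Gy. Both 30 Gy libraries were at about the level of DDIT3, and both 0 Gy libraries were as well. The means of 9.60 ± 1.05 FPKM at 30 Gy and 20.6 ± 1.16 FPKM at 0 Gy (SD, n = 2 each) differ 2.15-fold, and the log2 difference of -1.03 ± 0.09 (SE) was the largest in size of the 9 tested genes (limma adjusted p = 0.00543). TRIB3 stood at 0.968 and 1.001 times the FPKM of DDIT3 at 30 Gy, against 1.02 and 1.14 times at 0 Gy. Leaving out a 0 Gy library gave an adjusted p of 0.0847 (the first) or 0.0906 (the second), and over all alternatives it ran from 2.23e-08 to 0.0906.

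ASNS (ENSG00000070669, chr7:97852118-97872542, minus strand) encodes asparagine synthetase, a standard marker of ATF4 activity, and it was close to silent in this table. It had 0.239 and 0.240 FPKM at 30 Gy, against 0.748 and 1.14 FPKM at 0 Gy. These values rest on 17 and 17 reads at 30 Gy and on 58 and 86 reads at 0 Gy. The exact Poisson 95% interval, which covers counting error only, was 9.90 to 27.2 reads for each 30 Gy library, against 44.0 to 75.0 and 68.8 to 106 reads for the 0 Gy libraries. The intervals of the doses did not meet. With 1 FPKM reached in 1 library it was not tested as designed. limma with no filter gave a log2 difference of -0.64 (adjusted p = 0.149). voom on every gene with at least 10 reads over the 4 libraries, chosen after the data were seen, gave -1.93 (adjusted p = 0.00211), where 10.9% of 20688 genes were called lower. Of its 4455 exonic bases 1985 also belong to AC079781.5, a processed transcript on the same strand with 28 and 29 reads at 30 Gy and 33 and 57 reads at 0 Gy. How the authors counted reads that 2 genes share is not given in the sources used here, so the level of ASNS is uncertain.

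**Figure D2:**
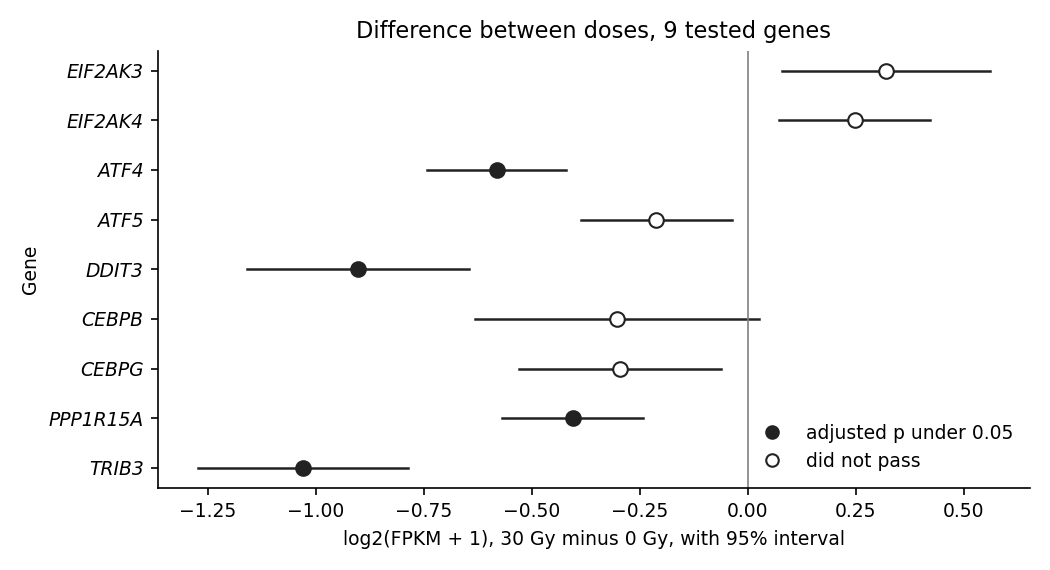
Difference between doses on the log2(FPKM + 1) scale for the 9 tested genes, 30 Gy minus 0 Gy, with 95% intervals from limma. Filled points passed at an adjusted p under 0.05 (ATF4, DDIT3, PPP1R15A and TRIB3), and the points of EIF2AK3 and EIF2AK4 lie right of 0 and are open.

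**Figure D3:**
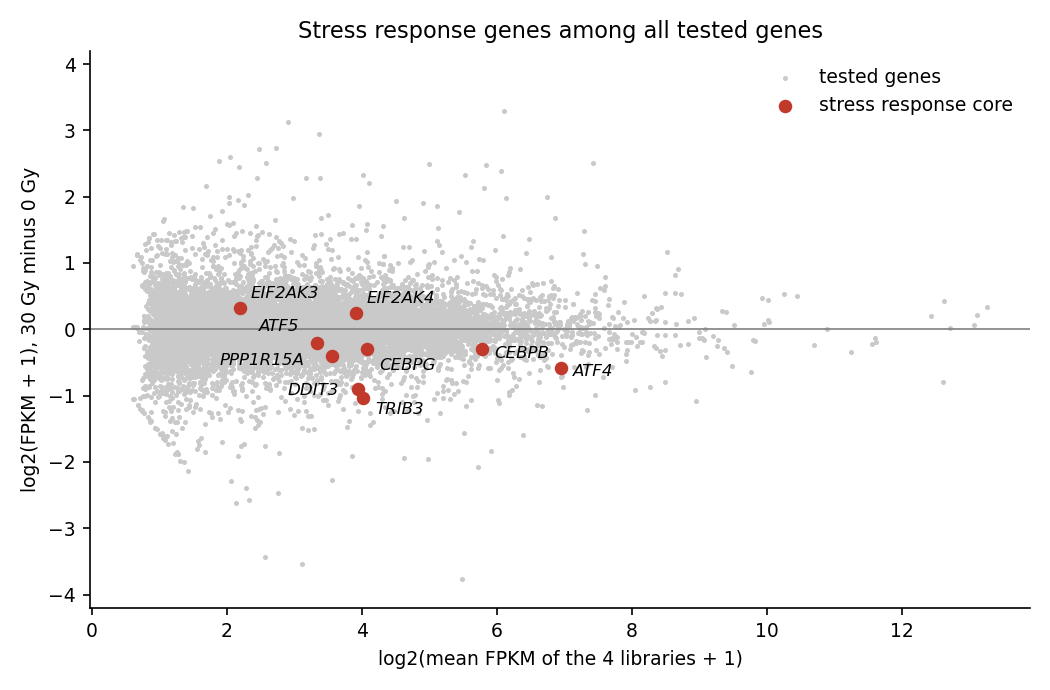
Difference between doses against the mean level, both on the log2(FPKM + 1) scale, for the 13379 tested genes (grey) with the 9 tested stress response genes in red. The red points lie between -1.03 (TRIB3) and 0.32 (EIF2AK3), inside the spread of the grey points.

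In the machinery of eIF2, on which the kinases act, and the genes listed with it, the genes that passed were lower at 30 Gy. The list held eIF2, its exchange factor eIF2B, its phosphatases and the cofactors of GCN2. It also held DNAJC3 and the factors EIF2A, EIF2D, MCTS1 and DENR, which are not parts of eIF2. Of its 20 tested genes 6 fell and 0 rose, where 9.06% of all tested genes were called lower. The median log2 difference was -0.08, against 0.00 over all tested genes. Besides PPP1R15A, EIF2B5, the catalytic subunit of the exchange factor, had 8.64 and 8.47 FPKM at 30 Gy, against 11.2 and 11.5 FPKM at 0 Gy (-0.37). GCN1, which GCN2 needs for its activation, had 30.6 and 30.5 FPKM at 30 Gy, against 37.5 and 40.4 FPKM at 0 Gy (-0.34). PPP1R15B, the constitutive counterpart of PPP1R15A, had 17.1 and 17.1 FPKM at 30 Gy, against 21.1 and 21.7 FPKM at 0 Gy (-0.31). PPP1CC, a catalytic subunit of protein phosphatase 1 (-0.31), and EIF2A (-0.24), an initiation factor apart from eIF2, completed the 6. EIF2S1, the subunit that the kinases phosphorylate, had 20.2 and 19.8 FPKM at 30 Gy, against 23.0 and 24.4 FPKM at 0 Gy, and did not pass (limma adjusted p = 0.0631). EIF2S1 was called lower by limma at a filter of 5 FPKM (adjusted p = 0.0441) and by voom (adjusted p = 0.0157). None of the 6 calls held without any 1 of the 4 libraries, and 3 held with the replicate number as a block.

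Among bZIP factors that pair with ATF4 or resemble it, 6 of 18 tested genes fell and 1 rose, with a median log2 difference of -0.25. Over all tested genes limma called 9.06% lower and 10.8% higher. ATF4 and DDIT3 are 2 of the 6 that fell. MAFG, a small MAF protein, had 28.3 and 25.2 FPKM at 30 Gy, against 41.0 and 41.5 FPKM at 0 Gy (-0.61). CEBPD, an acute-phase C/EBP factor, had 14.6 and 13.6 FPKM at 30 Gy, against 22.2 and 19.9 FPKM at 0 Gy (-0.54). ATF3, a stress-induced repressor that ATF4 can switch on, had 0.744 and 0.685 FPKM at 30 Gy, against 2.19 and 2.11 FPKM at 0 Gy (-0.88), and JDP2, a repressor of AP-1, fell by 0.81. ATF3 passed the filter through the 0 Gy libraries alone, so it could enter the test only as a gene that was lower at 30 Gy, and without it 5 of 17 genes fell (median -0.21). JUN, an AP-1 subunit, was the gene that rose, with 48.1 and 46.8 FPKM at 30 Gy, against 37.3 and 35.9 FPKM at 0 Gy (0.37). The call count was 3, all of them falls, without the first or second 30 Gy library. CEBPA had 1 to 11 reads in each library and was not tested.

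Many genes that ATF4 is known to switch on fell at 30 Gy. The lists were chosen with earlier results of these data known. Over the 3 target lists 49 tested genes are not among the 10 core genes, and 27 of them fell and 1 rose. Over all tested genes limma called 9.06% lower and 10.8% higher. The median log2 difference of the 49 was -0.37, against 0.00 over all tested genes. Without NUPR1, which passed the filter through the 0 Gy libraries alone, 26 of 48 fell (median -0.34). Of 19 tested genes of amino acid uptake and synthesis 10 fell and 0 rose (median -0.47). PHGDH, the first enzyme of serine synthesis, had 16.8 and 16.1 FPKM at 30 Gy, against 44.5 and 43.5 FPKM at 0 Gy (-1.37). SLC7A5, a carrier of large neutral amino acids, had 43.3 and 39.0 FPKM at 30 Gy, against 85.8 and 87.6 FPKM at 0 Gy (-1.06). PSAT1, the second enzyme of serine synthesis, fell by 0.77, and MTHFD2, an enzyme of mitochondrial folate metabolism, fell by 0.75. In contrast, SLC7A11, the cystine carrier, had 55.9 and 59.0 FPKM at 30 Gy, against 56.2 and 61.7 FPKM at 0 Gy (-0.04, limma adjusted p = 0.764). SHMT2 (0.08) and ALDH18A1 (0.15), the enzyme that starts proline synthesis, also did not pass. SLC38A2, a carrier of neutral amino acids, had 103 and 109 FPKM at 30 Gy, against 86.3 and 92.2 FPKM at 0 Gy (0.25, limma adjusted p = 0.0585). It passed as higher at 30 Gy with a filter of 5 FPKM (limma adjusted p = 0.0370) and with voom (0.00844). The count was 9 without the first 30 Gy library and 6 without the second.

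Among the cytosolic tRNA synthetases, which load tRNAs with amino acids, those listed as ATF4 targets were mostly lower. The list does not hold the whole family. Of 13 tested genes, the tRNA exporter XPOT among them, 10 fell and 0 rose, with a median of -0.47. Over all tested genes limma called 9.06% lower and 10.8% higher. AARS, for alanine, had 93.5 and 94.1 FPKM at 30 Gy, against 151 and 155 FPKM at 0 Gy (-0.70). WARS, for tryptophan, fell by 0.61, SARS, for serine, by 0.58 and XPOT by 0.54. IARS, TARS and LARS did not pass, with differences of -0.16, -0.11 and 0.04. The count was 5 without the first 30 Gy library and when every gene above 0 was tested, and 7 without the second 30 Gy library.

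Among the stress outputs of ATF4 and CHOP, 8 of 18 tested genes fell and 1 rose (median -0.26). Over all tested genes limma called 9.06% lower and 10.8% higher. Without NUPR1, 7 of 17 fell (median -0.24). DDIT4, an inhibitor of mTORC1, had 11.96 and 12.03 FPKM at 30 Gy, against 47.5 and 51.1 FPKM at 0 Gy (-1.95). GDF15, a stress-induced cytokine, had 27.7 and 23.3 FPKM at 30 Gy, against 95.6 and 90.5 FPKM at 0 Gy (-1.83). CHAC1, which breaks down glutathione and whose promoter window is shown above, had 4.26 and 3.30 FPKM at 30 Gy, against 13.2 and 12.1 FPKM at 0 Gy (-1.52). SESN2, which senses leucine for mTORC1, had 5.88 and 6.19 FPKM at 30 Gy, against 14.7 and 14.4 FPKM at 0 Gy (-1.15), and NUPR1 (-0.90), ADM2 (-0.81) and STC2 (-0.31) also fell. NUPR1 had 0.673 and 0.853 FPKM at 30 Gy, against 2.41 and 2.17 FPKM at 0 Gy. CDKN1A, the p21 inhibitor of the cell cycle, was the gene that rose, with 40.4 and 37.9 FPKM at 30 Gy, against 23.4 and 21.1 FPKM at 0 Gy (0.79). Genes of this list, those that fell included, can have regulators other than ATF4 and CHOP, as CDKN1A has p53. The part of such regulators was not tested. TNFRSF10B, the death receptor that CHOP can induce, had 23.8 and 23.7 FPKM at 30 Gy, against 26.9 and 28.0 FPKM at 0 Gy and did not pass (limma adjusted p = 0.0729). It was called lower by voom (adjusted p = 0.0270) and not by limma at a filter of 5 FPKM (adjusted p = 0.0571).

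**Figure D4:**
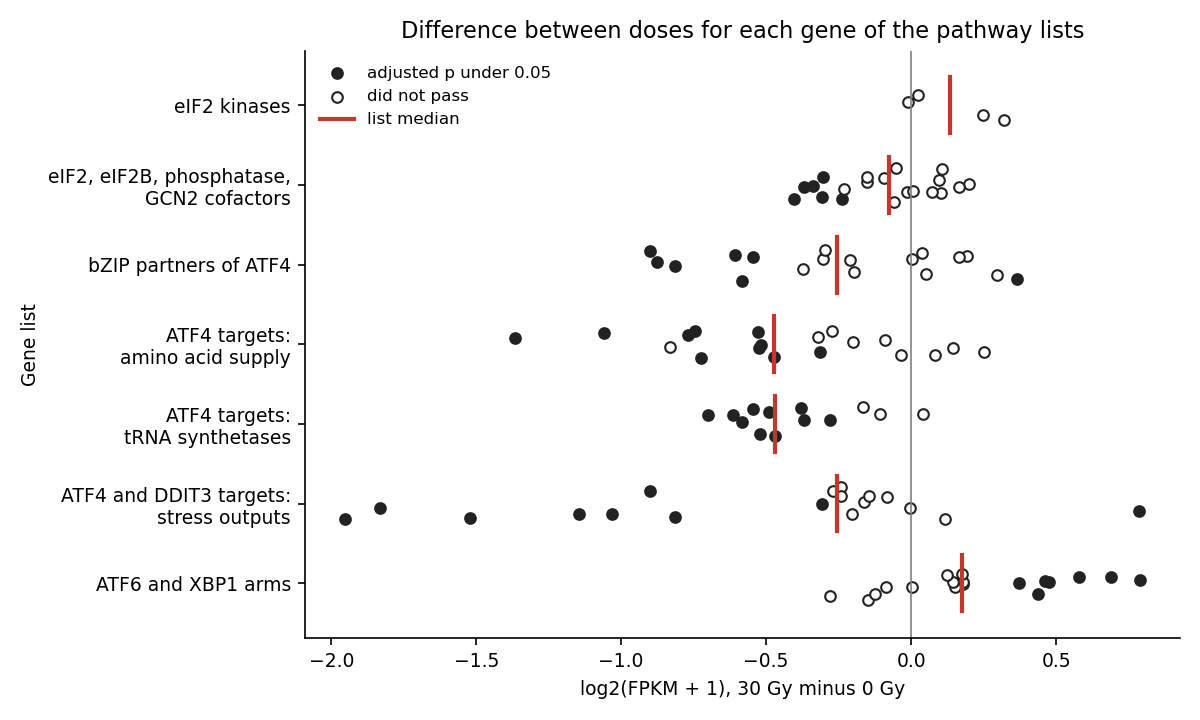
Difference between doses on the log2(FPKM + 1) scale, 30 Gy minus 0 Gy, for each tested gene of the 7 pathway lists, with a red bar at the list median and filled points for genes past the threshold (core genes are included in their lists). The medians of the 3 target lists lie at -0.47, -0.47 and -0.26, and that of the ATF6 and XBP1 arms lies at 0.18.

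The other arms of the unfolded protein response, which share PERK's trigger and act through ATF6 and XBP1, had calls in the opposite direction. Of 18 tested genes 7 rose and 0 fell, with a median log2 difference of 0.18. Over all tested genes limma called 10.8% higher and 9.06% lower. SEL1L did not pass as designed. It was called lower by limma at a filter of 5 FPKM (-0.28, adjusted p = 0.0463) and by voom (-0.31, adjusted p = 0.00702). HYOU1, a chaperone of the endoplasmic reticulum, had 18.2 and 18.4 FPKM at 30 Gy, against 9.93 and 10.4 FPKM at 0 Gy (0.79). MANF, a secreted protein of the endoplasmic reticulum, rose by 0.69, DNAJB9, a co-chaperone of BiP, by 0.58 and PDIA4, a disulfide isomerase, by 0.48, and the chaperones or co-chaperones CALR, HSPA5 and DNAJB11 completed the 7. HSPA5 encodes BiP, the chaperone that holds PERK inactive, and had 197 and 194 FPKM at 30 Gy, against 144 and 144 FPKM at 0 Gy (0.44). The sensors themselves did not pass, with log2 differences of 0.00 for ATF6 and -0.15 for ERN1, and XBP1 differed by -0.13. The difference between this list and the ATF4 target lists was not tested. The count was 1 without the first 30 Gy library, and 2 without the second and when every gene above 0 was tested.

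Across the 4 libraries, the protein-coding genes whose centred log2(FPKM + 1) values lay closest to those of ATF4 were ZC3H12B, CTTN, TSPAN8, AKR1C3 and NUDT9, at Euclidean distances of 0.0233 to 0.0344. Their log2 differences were -0.58 to -0.56, against -0.58 for ATF4, which follows from the way they were picked. ZC3H12B had 0.392 and 0.409 FPKM at 30 Gy, against 1.14 and 1.04 FPKM at 0 Gy. It passed the filter through the 0 Gy libraries alone, and at such low values the added 1 shapes the likeness. The likeness rests on 4 libraries in 2 groups.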

How the data were processed

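RNA was extracted with Trizol and libraries were made from 0.2 ug of total RNA with Illumina protocols, per the labels' protocols. The authors deposited FPKM values per gene for the 4 libraries. The submitters' processing notes name hg38; the aligner, the counter and the annotation they used are not stated there. Start and end of 58724 of 58735 genes equalled GENCODE v29, used for exon overlaps. FPKM times gene length gave whole multiples of 1 step per library for 100% of values above 0 (tolerance 0.001), which recovered the reads. limma 3.58.1 (R 4.3.3; lmFit, eBayes with trend, two-sided) was fitted to log2(FPKM + 1) of all 13379 genes with at least 1 FPKM in at least 2 libraries, without covariate, and p-values were adjusted over all of them. This scale understates changes of low genes. Replicates differed by more than sampling noise (mean chi-square per gene 5.68 at 30 Gy and 6.31 at 0 Gy). The script was tested on simulated data. A permutation test of 2 against 2 libraries cannot reach 0.05, so none was used. Named are the 10 members, the tested eIF2 kinases and up to 4 further genes of each list past the threshold with at least 5 FPKM in the higher group; others were chosen after their values were seen. Members and lists were chosen with earlier results of these data known.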

Additional observations from a re-analysis of the deposited data

How the results depend on the processing

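Every log2 difference of the 10 genes kept its sign under each alternative run. The pseudocount (0.1), median centring, equal sums and a replicate block left the count of called core genes at 4, as did eBayes without trend. The scalings moved the median of all genes by -0.02. Counts moved as follows. Over all genes 2654 passed as designed, 604 with no filter, 4227 with voom on the recovered reads, 4456 with voom on every gene with at least 10 reads, and 0 to 898 with 1 library left out. Of the core genes 4 passed as designed, 2 with no filter, 8 and 9 with the 2 voom fits, and 0 to 3 with 1 library left out. Of the eIF2 kinases 0 passed, 1 at a filter of 5 FPKM, 2 with each voom fit and 0 with any library left out. Of the eIF2 machinery list 6 passed, 0 with no filter, 2 without trend, 3 with the replicate block and 0 with any library left out. No filter left 1 of 7 bZIP calls, 5 of 10 tRNA synthetase calls and 2 of 7 ATF6 and XBP1 calls. With 1 library left out the counts were 0 to 3 for bZIP genes, 0 to 9 for amino acid genes, 0 to 7 for tRNA synthetases, 0 to 7 for stress outputs and 0 to 2 for the ATF6 and XBP1 arms. The replicate numbers share only a number: deviations of same-numbered libraries correlated at -0.0263 over the tested genes, and the block gave 1926 calls over all genes. A lone library in a group is assumed to vary like the other group. For ASNS, at 17 reads in each 30 Gy library, depth limits the precision.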
